A study of Mus musculus with 2 samples.

Results

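Purine salvage and breakdown was described here through 9 genes: Nt5e, Slc28a2, Slc29a1, Ada, Adk, Pnp, Hprt, Gda and Xdh. They were taken by symbol from the 43346 genes with an Ensembl mouse identifier in the deposited gene tables, and all 9 were found. The 2 libraries, replicates 1 and 2, form 1 group with no treatment and no second condition: small intestine of C57BL/6J mice aged 8 weeks, with males and females of a litter mixed. Both came from poly(A)-selected RNA longer than 200 nt that was also depleted of ribosomal RNA, and were read as stranded pairs of 76 nt. The tissue was taken whole, so every level is a sum over epithelium, immune cells, muscle and stroma, and fewer cells of a type cannot be told apart from less RNA per cell. The labels give the replicates separate biosamples, do not say which stretch of intestine each holds, and do not say how many animals were pooled.

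Purine nucleotides are costly to build, and cells recover their parts. Outside the cell, nucleotides are stripped of phosphates to nucleosides, which enter through transporters. Inside, a kinase can return adenosine to AMP, or a deaminase turns it into inosine, which a phosphorylase splits into sugar and hypoxanthine. Hypoxanthine and guanine are then either rebuilt into nucleotides by a phosphoribosyltransferase or broken down to xanthine and urate. The small intestine meets the nucleic acids of food and of shed cells, and its lining is a textbook site of purine degradation.

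The 9 mRNAs spanned from adenosine deaminase, the most abundant by a wide margin, to the base-salvage enzyme Hprt at about 1 TPM. TPM is the deposited abundance scale; it counts per unit of transcript length, sums to the same total in each library, and can be compared between genes. The members' TPM values summed to 937 in replicate 1 and 797 in replicate 2, a mean of 867 ± 99.2 (SD, n = 2). Ada made up 74.4% of that sum in replicate 1 and 42.5% in replicate 2. Without Ada the sums were 239.8 and 458 TPM, lower in replicate 1. Of the 9 genes, 8 reached 1 TPM in both libraries, and the exception was Hprt.

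The libraries held 45472946 and 45822403 estimated fragments, of which 83582 and 65463 were assigned to the 9 genes. They differed in the level of marker RNA of neighbouring organs. Exocrine pancreas and stomach marker genes, such as the pancreatic protease gene Ctrb1 (53239 and 112 TPM) and the gastric peptide gene Tff2 (8479 and 15.6 TPM), made up 28.6% of replicate 1 by TPM and 0.18% of replicate 2. Over the 12260 genes that averaged 1 TPM or more, which are the genes tested here, the median ratio favoured replicate 2 by 0.66 log2 units. Ratios between the replicates are given below as log2 of replicate 2 over replicate 1, with 1 TPM added to each value and that median subtracted, and are called centred ratios. A gene was counted as past 2-fold at a centred ratio of 1 or more in either direction. With 1 group and n = 2 there is no test and no p-value, and the spread between replicates is set beside that of all genes.

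**Figure D1:**
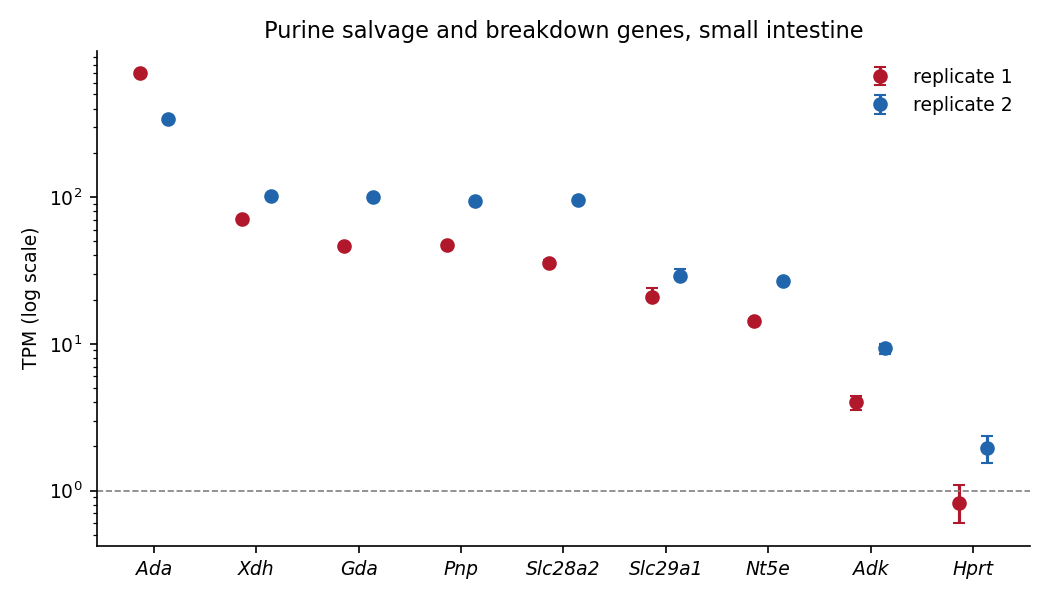
TPM (log axis) of the 9 genes in replicate 1 (red) and replicate 2 (blue), ordered by mean; bars are the deposited credibility intervals, narrower than the point for most genes, and the dashed line marks 1 TPM. Ada is the gene with its replicate 1 value above its replicate 2 value (697 and 339 TPM), and Hprt lies lowest (0.82 and 1.94 TPM).

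The order of the members was nearly the same in both libraries (Spearman rho 0.95 over the 9 genes, as a description). Ada, Xdh, Slc29a1, Nt5e, Adk and Hprt held the same place in both. Pnp, Gda and Slc28a2 changed places among themselves: Pnp was the third gene in replicate 1 and the fifth in replicate 2. By mean level, Xdh and its neighbour Gda were 12.995 TPM apart with SDs of 21.3 and 38.01, and Gda and Pnp 2.25 TPM apart with SDs of 38.01 and 33.5. Pnp and Slc28a2 were 5.68 TPM apart, and Slc29a1 and Nt5e 4.21 TPM apart, each less than the SD of either gene. The 4 genes from Xdh to Slc28a2 thus lay close by mean, and the order of Gda, Pnp and Slc28a2 differed between the replicates. Xdh was the highest of the 4 in both, its deposited interval apart from that of Gda in replicate 1 and overlapping it in replicate 2. Slc29a1 was above Nt5e in both libraries, with intervals apart in both. These SDs include any shift shared by the genes of a library, so they are not the spread of a gap within a library. The gap of 40.4 TPM between Slc28a2 and Slc29a1 was below the SD of Slc28a2 (42.3), but Slc28a2 was the higher of the pair in both libraries. The steps from Ada to Xdh (432 TPM), from Nt5e to Adk (13.9 TPM) and from Adk to Hprt (5.28 TPM) were each larger than the SD of either gene.

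The sequences that bear on how far these values can be read are those where 2 genes are nearly the same. Pnp has a tandem copy, Pnp2, on chromosome 14, and Slc28a2 has a neighbouring copy, Gm14085 (also named Slc28a2b), on chromosome 2. Over the 4 coding exons compared, Pnp and Pnp2 differed at 5 of 641 bases (99.2% identity), and over 15 coding exons Slc28a2 and Gm14085 differed at 101 of 1784 bases (94.3% identity). One exon of each pair is printed below, 5′ to 3′ from the GRCm38 transcripts with the differing bases in capitals, to show how little a 76 nt read may have to go on. The Pnp exons are chr14:50950258-50950361 and chr14:50963105-50963208, the Slc28a2 exons chr2:122450926-122451039 and chr2:122516954-122517067, all on the plus strand.
Pnp exon 3: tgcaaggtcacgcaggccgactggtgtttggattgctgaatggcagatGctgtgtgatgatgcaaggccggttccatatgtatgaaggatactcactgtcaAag
Pnp2 exon 3: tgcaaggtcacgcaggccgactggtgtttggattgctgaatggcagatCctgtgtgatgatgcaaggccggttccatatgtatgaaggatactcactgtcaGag
Slc28a2 exon 7: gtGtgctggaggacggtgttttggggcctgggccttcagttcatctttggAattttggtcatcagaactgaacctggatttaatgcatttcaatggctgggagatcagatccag
Gm14085 exon 7: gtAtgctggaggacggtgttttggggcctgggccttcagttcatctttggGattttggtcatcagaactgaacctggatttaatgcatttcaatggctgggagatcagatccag
Each pair differs at 2 positions, over 104 bases for the Pnp exons and 114 bases for the Slc28a2 exons. These exons were chosen by length. The Slc28a2 exon (98.2% identity) is more alike than the exons of that pair together (94.3%), and the Pnp exon (98.1%) is less alike (99.2%). Of all 76 nt windows in the main Pnp transcript, 25.8% also occur in Pnp2, and 29.8% of those in the main Slc28a2 transcript occur in Gm14085 against 0% shared with any gene of the tables for the main transcripts of Ada, Adk, Gda, Hprt, Nt5e, Slc29a1 and Xdh. The windows were counted singly, without the mate of a read pair, which may place a fragment that 1 read cannot. The Pnp and Slc28a2 levels therefore depend in part on how the authors' estimation shared such reads out, and the other 7 do not share that limit.

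Adenosine production at the cell surface was the task of Nt5e, the membrane ecto-5′-nucleotidase CD73, which removes the last phosphate of AMP. Nt5e (chr9:88327197-88372092) stood at 14.3 and 26.9 TPM, a mean of 20.6 ± 8.88 (SD, n = 2). Its centred ratio was 0.20, inside the range of -0.35 to 0.33 that held the middle 50% of genes (the 25th and 75th percentiles). By TPM, most of this was not assigned to the protein-coding transcript. A model with a retained intron, Nt5e-203, took 66.1% of the gene in replicate 1 and 54.5% in replicate 2, and the coding model Nt5e-201 took 33.0% and 44.6%. As coding transcript alone, Nt5e was at 4.72 and 11.98 TPM. By estimated fragments, Nt5e-203 (2646 nt) held 1159 and 1401 and the longer Nt5e-201 (3995 nt) 902 and 1783. The coding model thus had the fewer fragments in replicate 1 and the more in replicate 2.

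The entry step had 2 members. Slc28a2 (chr2:122426477-122461137) encodes the sodium-coupled concentrative transporter CNT2, which prefers purine nucleosides, and Slc29a1 (chr17:45585200-45599606) encodes the equilibrative transporter ENT1. Slc28a2 was at 35.3 and 95.1 TPM (mean 65.2 ± 42.3) and Slc29a1 at 20.8 and 28.8 TPM (mean 24.8 ± 5.59, both SD, n = 2). The concentrative gene was the higher in each library, by 1.69-fold in replicate 1 and 3.31-fold in replicate 2. Slc28a2 had the highest centred ratio of the members at 0.74, above that of 91.0% of genes, while Slc29a1 was at -0.22.

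The near copy Gm14085 behaved otherwise, at 3.38 and 0.06 TPM, from 603 and 8.82 estimated fragments. Its centred ratio was -2.71, past 2-fold and opposite in sign to that of Slc28a2 (0.74). Adding it to Slc28a2 left the mean log2 ratio of Slc28a2 over Slc29a1 at 1.31, against 1.24 ± 0.68 (SD, n = 2) without it. Slc28a2 was read mainly as the transcript Slc28a2-202 (87.0% and 94.3% of the gene). Slc29a1 was spread over 25 transcript models. By mean share it was led by Slc29a1-202 (43.0% and 57.6%), Slc29a1-203 (20.2% and 11.6%) and Slc29a1-206 (6.84% and 11.0%), which are all protein-coding. In replicate 1 the retained intron model Slc29a1-214 (9.77% and 0%) and the coding Slc29a1-222 (7.49% and 4.12%) were above Slc29a1-206.

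Adenosine removal held 2 members at very different levels. Ada, adenosine deaminase, which turns adenosine and deoxyadenosine into inosine and deoxyinosine, had 697 TPM in replicate 1 against 339 in replicate 2, a mean of 518 ± 253 (SD, n = 2), from 51353 and 19565 estimated fragments. It ranked at place 123 and place 411 of 43346 genes. Adk, adenosine kinase, which instead returns adenosine to AMP, was at 3.99 and 9.32 TPM (mean 6.66 ± 3.77) from 314 and 574 fragments. The ratio of Ada to Adk within a library, which no scaling between libraries can alter, was 175-fold in replicate 1 and 36.4-fold in replicate 2. On the log2 scale it was 6.32 ± 1.601 (SD, n = 2), so its size was poorly fixed while its direction was the same in both.

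Ada (chr2:163726584-163750239) was also the member that differed most between the replicates. Its centred ratio was -1.70, lower than in all but 3.04% of genes tested, and it was the only member past 2-fold. Of all 12260 genes tested, 6.32% were at least 2-fold higher in replicate 1 after centring and 5.03% at least 2-fold higher in replicate 2, and the members' counts of 1 of 9 and 0 of 9 stand beside those shares and say nothing particular about the set. Nearly all of Ada was read as the coding transcript Ada-201 (99.7% and 99.6%). The ratio stayed past 2-fold in the same direction under all 11 other scalings and settings, between -1.85 and -1.04.

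Markers of position along the gut and of neighbouring organs moved with this difference. Of 5 proximal intestine markers, 4 were at least 2-fold higher in replicate 1 (sums 169 and 107 TPM), among them the iron exporter gene Slc40a1 (27.1 and 1.04 TPM), with Gata4 as the exception (95.5 and 104 TPM). All 4 distal markers tested were at least 2-fold higher in replicate 2, led by Amn (87.5 and 820.0 TPM), which made up most of the sums of 88.1 and 858 TPM. Cubn was at 0.20 and 24.3 TPM. The other distal markers were low in both libraries: Nts (0.19 and 7.15 TPM), Fabp6 (0.08 and 4.95 TPM) and the untested Slc10a2 (0.13 and 1.85 TPM). Also at least 2-fold higher in replicate 2 were 6 of 7 enterocyte markers (sums 1181 and 5265 TPM, with Anpep at 512 and 2687) and 2 of 4 villus tip markers (sums 2423 and 5920 TPM). The 2 were Krt20 (234 and 779 TPM) and Klf4 (142 and 479 TPM), while Apoa4, the most abundant of that list (1916 and 4255 TPM), was not past 2-fold. All 13 exocrine pancreas markers (sums 266368 and 1751 TPM) and all 8 stomach markers tested (sums 19753 and 51.5 TPM) were higher in replicate 1, while neither parietal cell gene reached 1 TPM (Atp4a 0.95 and 0.30, Atp4b 0.05 and 0.07). The part of these in the Ada difference was not tested. All 5 markers of the squamous epithelium of forestomach and oesophagus were under 1 TPM in both libraries (sums 1.73 and 0.27 TPM), with Krt13 at 0 in replicate 2, where 3 fragments would have given 0.132 TPM. In the plasma cell, T cell, endothelial, fibroblast, cycling cell and red blood cell lists no tested gene was past 2-fold, and in the smooth muscle list Des was (174 and 124 TPM, higher in replicate 1 after centring).

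**Figure D2:**
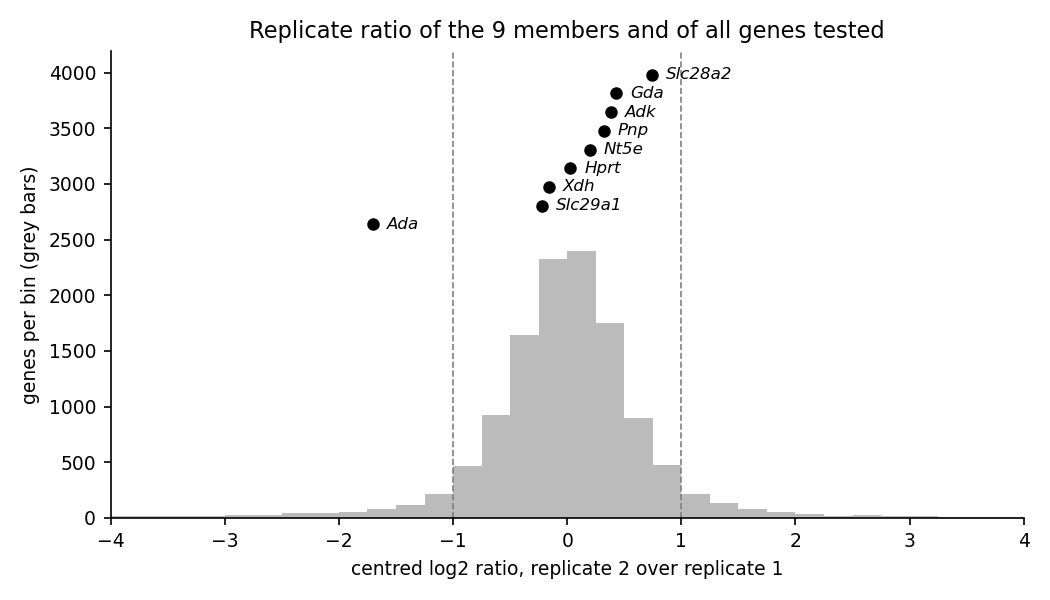
Centred log2 ratio of replicate 2 over replicate 1 for the 9 members (points, spread upward only to keep the names apart) above a histogram of the 12260 genes tested (bins of 0.25; 131 genes beyond 4 in either direction are not drawn); dashed lines mark 2-fold. Ada lies at -1.70 and the other 8 members between -0.22 and 0.74.

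The cleavage of inosine and guanosine falls to Pnp, purine nucleoside phosphorylase. Pnp was at 47.2 and 94.6 TPM (mean 70.9 ± 33.5, SD, n = 2), with a centred ratio of 0.32, and its copy Pnp2 was at 50.6 and 71.3 TPM with a centred ratio of -0.18. The copies were thus at similar levels, Pnp2 the higher in replicate 1 and Pnp the higher in replicate 2. Taken singly, 25.8% of the 76 nt windows of the main Pnp transcript cannot tell the copies apart. Within Pnp, the transcript Pnp-202 took 90.4% and 92.9%. Its model begins in Pnp, at chr14:50944506, and its last 2 exons (of 8) lie past the end of Pnp2, from chr14:50965023 to chr14:50965237, while it shares no exon base with the Pnp2 transcript. The other model, Pnp-201, which stays within Pnp, took 9.63% and 7.13%. Of the 1306 bases of Pnp-202, 1163 (89.1%) are exon sequence that Pnp-201 also has. In that shared stretch the division between the models is the authors' estimate.

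Of the members, the base salvage gene Hprt had the lowest level. Hprt, the enzyme that joins hypoxanthine or guanine to ribose phosphate to make IMP or GMP, is used widely as a reference gene. Hprt (chrX:52988137-53021659) was at 0.82 and 1.94 TPM (mean 1.38 ± 0.79, SD, n = 2), from 44 and 82 estimated fragments. Its deposited interval ran from 0.60 to 1.083 TPM in replicate 1 and from 1.54 to 2.37 TPM in replicate 2, and its centred ratio was 0.03. Aprt, the corresponding enzyme for adenine, was at 184 and 316 TPM, which was 225-fold and 163-fold the level of Hprt, a pair chosen after its values were seen.

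Transcript base composition differed among the members. The Hprt and Adk transcripts held 40.1% and 44.1% G and C, in the lowest quintile of 14747 genes, whose median was 0.55 TPM and 0.94 TPM. Both genes were above those medians in replicate 1 and in replicate 2. In the highest quintile the medians were 8.90 and 13.2 TPM. The coding Gda transcript, at 42.7% G and C, was also in the range of the lowest quintile, yet had 11.6 and 25.4 TPM. Ada (53.8%) and Slc29a1 (55.3%) lay in quintile 4, and Pnp (49.2%) and Slc28a2 (47.5%), both above Slc29a1 in level, lay in quintile 2. Whether base composition has a part in the order of the members was not tested.

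The promoters of the highest and the lowest member are printed to set beside the levels. They run from 250 bases before to 50 after the RefSeq start (GRCm38.p6), 5′ to 3′, with the letters GGGCGG, the core of the GC box, in capitals, searched on both strands. Ada is chr2:163750190-163750489 on the minus strand and Hprt chrX:52987828-52988127 on the plus strand.
Ada promoter: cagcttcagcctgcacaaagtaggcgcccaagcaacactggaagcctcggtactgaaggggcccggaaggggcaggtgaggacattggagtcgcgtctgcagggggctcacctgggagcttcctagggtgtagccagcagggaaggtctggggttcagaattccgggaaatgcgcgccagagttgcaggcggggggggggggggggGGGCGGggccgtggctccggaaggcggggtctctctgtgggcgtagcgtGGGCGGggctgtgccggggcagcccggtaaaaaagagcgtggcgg
Hprt promoter: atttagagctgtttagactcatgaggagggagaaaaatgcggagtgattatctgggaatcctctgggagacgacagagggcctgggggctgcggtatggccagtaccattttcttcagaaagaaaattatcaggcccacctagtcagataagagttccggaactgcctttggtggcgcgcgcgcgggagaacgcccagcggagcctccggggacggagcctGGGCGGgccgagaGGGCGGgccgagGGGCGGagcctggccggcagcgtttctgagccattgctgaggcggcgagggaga
Ada has 2 such matches and Hprt 3, and 35.7% of the 32851 promoter windows in the table hold at least 1. Neither has TATAAA on either strand, which 13.6% of the windows have. The windows held 68.0% G and C for Ada and 61.0% for Hprt.

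Base breakdown had 2 members at the level of Pnp. Gda, guanine deaminase, turns guanine into xanthine, and Xdh, xanthine dehydrogenase, oxidises hypoxanthine and xanthine to urate. Gda (chr19:21391307-21473445) was at 46.3 and 100.02 TPM (mean 73.1 ± 38.01) and Xdh (chr17:73883895-73950196) at 71.1 and 101 TPM (mean 86.1 ± 21.3, both SD, n = 2). Their centred ratios were 0.43 and -0.16. Within a library, Xdh was 86.7-fold and 52.2-fold higher than Hprt, which competes with it for hypoxanthine. Gda was 56.4-fold and 51.6-fold higher than Hprt, which competes with it for guanine. This was the most even of the 5 ratios of members computed (5.75 ± 0.09 on the log2 scale, SD, n = 2). Hprt rested on 44 and 82 estimated fragments, with deposited intervals of 0.60 to 1.083 TPM and 1.54 to 2.37 TPM. The SD between the replicates therefore does not measure how precisely this ratio is known.

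By TPM, the Gda level, like that of Nt5e, rested mostly on a retained intron model. Gda-203 took 74.9% of the gene in replicate 1 and 74.6% in replicate 2, and the coding Gda-201 25.1% and 25.4%. These are shares of TPM, which is per unit of length. By estimated fragments the longer Gda-201 (5428 nt) held more, 3065 and 5220, against 1970 and 3335 for Gda-203 (1353 nt). As coding transcript alone, Gda was at 11.6 and 25.4 TPM and 14.2-fold and 13.1-fold higher than Hprt, so the direction held and the size fell. Both models end by running past an exon into the intron after it. The junctions are printed in transcript direction, exon bases in capitals and the first 60 intron bases in lower case, at chr19:21419314-21419401 on the minus strand for Gda and chr9:88366438-88366527 on the plus strand for Nt5e (GRCm38).
Gda-203 exon 6: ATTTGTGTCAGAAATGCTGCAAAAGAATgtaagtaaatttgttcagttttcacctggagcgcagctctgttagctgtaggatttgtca
Nt5e-203 exon 6: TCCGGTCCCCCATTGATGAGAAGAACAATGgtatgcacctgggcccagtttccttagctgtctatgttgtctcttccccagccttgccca
In each, the intron opens with gt, the letters of a 5′ splice site, directly after the last exon base. Gda-203 keeps 649 intron bases after a 28 nt exon, and 52.0% of its length is exon sequence that Gda-201 also has. Nt5e-203 keeps 1377 intron bases after a 106 nt exon, and 53.6% of its length is shared with Nt5e-201. In shared stretches the division between the models is the authors' estimate. Of the other members, Adk, Hprt and Xdh had 1 transcript model each.

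**Figure D3:**
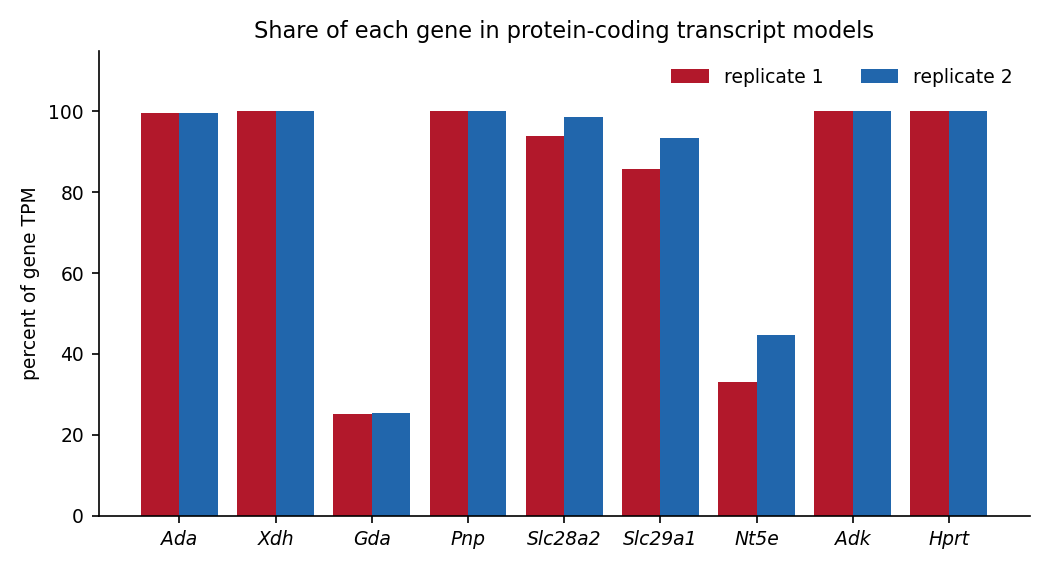
Percent of each gene's TPM in protein-coding transcript models, by replicate (red 1, blue 2), with genes in order of mean level. Gda (25.1% and 25.4%) and Nt5e (33.0% and 44.6%) lie far below the other 7 genes.

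The rest of purine and pyrimidine metabolism was read through 7 lists of 85 genes, of which 68 had a mean TPM of at least 1. Of these 68, 4 were past 2-fold higher in replicate 1 and 2 past 2-fold higher in replicate 2, beside 6.32% and 5.03% of all genes. The members' median centred ratio was 0.20 and that of the 68 genes was -0.07, where all genes tested have 0 by construction.

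Other salvage and interconversion enzymes (20 genes, 14 tested) had 0 past 2-fold in either direction, a median of -0.19 and sums of 473 and 754 TPM. After Aprt the most abundant were the AMP deaminase Ampd2 (75.4 and 89.6 TPM), the nucleotidase Nt5c (45.6 and 108 TPM) and the adenosylhomocysteine hydrolase Ahcy (61.3 and 80.3 TPM). In 4 genes both values were under 1 TPM: Mtap (0.61 and 0.72), Nt5c1a (0.02 and 0.03), and Ampd1 and Nt5c1b, each with 0 fragments, where 3 fragments would have given 0.0419 to 0.0566 TPM. Aprt was thus above every member but Ada in both libraries, and the muscle-type gene Ampd1 was not detected at this depth.

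The 13 genes of synthesis from scratch summed to 84.1 and 139 TPM, against 937 and 797 TPM for the 9 members and 239.8 and 458 TPM for the 8 members without Ada. Of the 13, 11 were tested, 0 were past 2-fold and the median was -0.07. The most abundant were Impdh2 (18.6 and 42.5 TPM) and Impdh1 (11.95 and 12.6 TPM), which make XMP on the way to GMP, with Adss (13.6 and 25.4 TPM) and Adsl (10.4 and 17.4 TPM) of the AMP branch; these 4 enzymes also serve interconversion. Ppat, the amidotransferase that commits to the pathway, was at 0.96 and 0.94 TPM and Gmps at 0.28 and 0.61 TPM.

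Beyond Xdh, the gene for the enzyme that oxidises urate was nearly silent. Uox, the urate oxidase that in the mouse acts mainly in the liver, was at 0.05 and 0.09 TPM, and Allc, allantoicase, had 0 fragments in both, where 3 would have given 0.0489 and 0.0622 TPM. The aldehyde oxidase genes Aox1, Aox2, Aox3 and Aox4, relatives of Xdh, were all at or under 0.26 TPM. Genes for the molybdenum cofactor that Xdh needs were present, led by Mocs1 (45.7 and 59.95 TPM) and Mocs3 (24.99 and 38.6 TPM), and Mocos, which sulfurates the cofactor for Xdh, was at 14.6 and 27.9 TPM. Urah and Urad, which act after Uox, were at 26.7 and 27.4 TPM and at 2.52 and 3.84 TPM. Of the 7 tested of the 13 genes of this list 0 were past 2-fold, with a median of -0.20.

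Surface nucleotidases and phosphatases held the largest difference between replicates among the 7 lists. The 9 genes, all tested, had a median of -0.20 and 2 past 2-fold, both higher in replicate 1. These were the intestinal alkaline phosphatases Alpi (3759 and 1663 TPM, centred ratio -1.84) and Akp3 (4555 and 11.1 TPM, centred ratio -9.22), which can strip phosphates from nucleotides in the gut lumen. The surface nucleotidase genes Entpd8 (119 and 231 TPM) and Entpd2 (20.7 and 41.5 TPM) and the phosphodiesterase gene Enpp3 (29.8 and 44.4 TPM) were not past 2-fold. Both phosphatases and Ada were thus higher in replicate 1; the part of the proximal, pancreas and stomach markers in this, given above, was not tested.

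Other transporters (12 genes, 11 tested) had a median of 0.40, with 1 gene past 2-fold in each direction: Gm14085, given above, and the organic anion carrier gene Slc17a4 (3.51 and 22.6 TPM, centred ratio 1.72). The most abundant were the sodium-coupled nucleobase transporter gene Slc23a4 (109 and 264 TPM) and Slc28a1 (32.5 and 77.3 TPM), the concentrative transporter that prefers pyrimidine nucleosides, followed by Slc43a3 (11.6 and 25.4 TPM), a purine base transporter. Slc28a1 was thus close to Slc28a2 in both libraries.

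On the adenosine signalling side, Adora2b was the most abundant of 4 receptor genes (13.1 and 29.8 TPM). Adora1 (2.84 and 1.01 TPM, centred ratio -1.60) was past 2-fold higher in replicate 1, Adora2a was at 1.57 and 3.1 TPM, and Adora3 was under 1 TPM in both (0.68 and 0.52). Dpp4, the surface peptidase CD26 that binds adenosine deaminase in humans, was at 10.3 and 63.4 TPM with a centred ratio of 1.85, opposite in direction to Ada. The median of the 4 tested genes of this list was 0.24.

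Pyrimidine salvage and breakdown (13 genes, 12 tested) had 0 genes past 2-fold and a median of 0.10, with sums of 528 and 1069.6 TPM. It was led by Cda, cytidine deaminase (175 and 343 TPM), and Upp1, uridine phosphorylase (114 and 342 TPM), then Tymp (91.4 and 124 TPM) and the uridine kinase relative Uckl1 (77.3 and 122 TPM). Dpys had 0 fragments in both libraries, where 3 would have given 0.0513 and 0.0652 TPM. As with Ada among the purine genes, a nucleoside deaminase was the most abundant gene of this list by mean, but Cda was not past 2-fold between replicates.

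**Figure D4:**
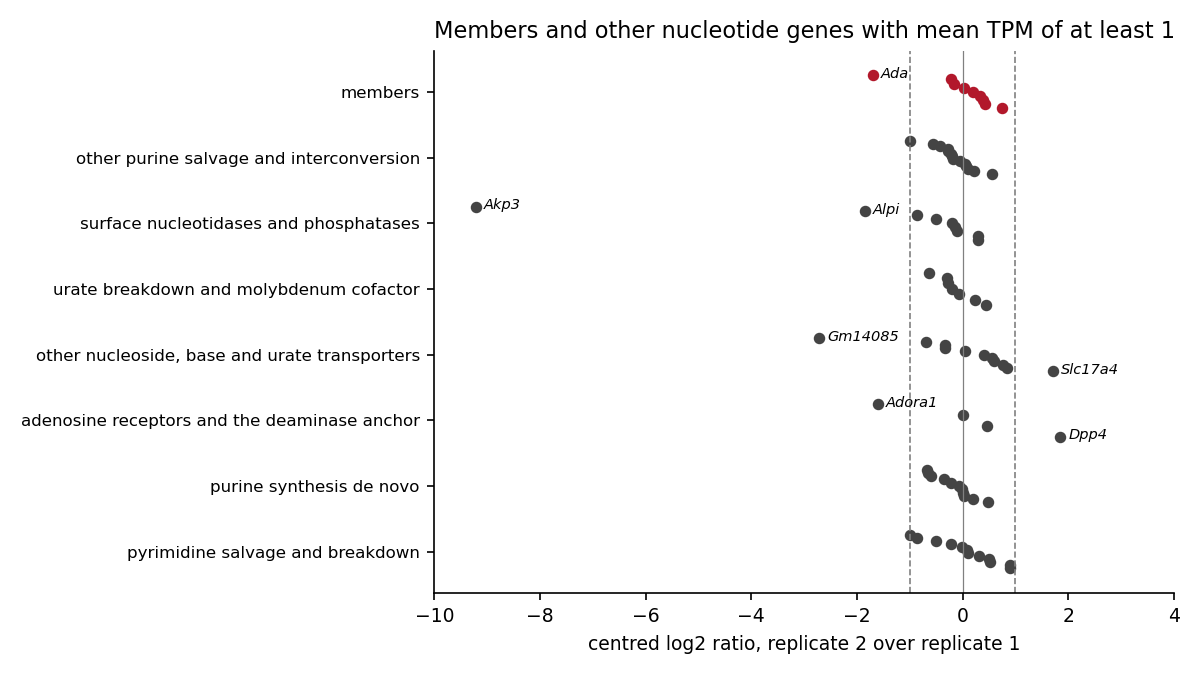
Centred log2 ratio of replicate 2 over replicate 1 for the 9 members (red) and the 68 tested genes of the 7 other lists (grey), 1 point per gene and spread vertically only to keep points apart; dashed lines mark 2-fold, and genes past it are named. The members other than Ada lie between the lines, and Akp3 lies farthest out at -9.22.

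Direction between replicates depended on the base for part of the members. Without centring, 8 of 9 were higher in replicate 2, with Slc28a2, Gda and Adk (1.41, 1.096 and 1.05 log2 units) then past 2-fold, and Ada was higher in replicate 1 (-1.04). After centring, 6 were above 0 and 3 below. Ada was below 0 and Slc28a2, Gda, Adk, Pnp and Nt5e above 0 under every one of the 12 scalings and settings, while Xdh, Slc29a1 and Hprt took both signs among them. The deposited credibility intervals of the replicates, which cover the estimation within a library and are not centred, were apart for 9 of 9 members and for 79.9% of all genes tested.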

How the data were processed

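The 2 libraries form 1 group, so levels are given per replicate and as mean ± SD, with no test. The members and the gene lists were chosen with earlier results of these data known. The authors deposited, per gene and transcript, expected counts (estimated fragments), TPM, FPKM, posterior mean TPM with credibility intervals (level not stated) and the percent of a gene in each transcript, per the file headers. The assembly is mm10 with annotation release M4, per the deposited text; the sources used here name neither aligner nor quantifier. Symbols and coordinates came from GENCODE M21 (GRCm38), which holds 42462 of the 43346 identifiers. The Pnp row was matched through its transcripts, which M21 names Pnp, because M21 gives that gene identifier to another locus. Promoters came from RefSeq, with 8 of 9 members in the table; Xdh is not among them. Centred ratios used a pseudocount of 1 TPM and genes with mean TPM of at least 1. The calculation was tested on simulated data, which did not hold the large pancreas and stomach difference of these libraries, so that test does not cover it. Named genes are the members, their near copies, the 4 highest of each other list, those past 2-fold, those under 1 TPM in both where 6 or fewer, and 2 highest markers or any at 0. Entpd2, Urad, Klf4, Atp4a, Atp4b, Des, Nts, Fabp6 and Slc10a2 were added after their values were seen. Transcripts with at least 10% of a gene were named, and Pnp-201 was added. Alternatives were other pseudocounts, FPKM, posterior means, spike-ins, each replicate alone, and expected counts per effective length scaled by edgeR 4.0.16 (TMM) or DESeq2 1.42.0 (size factors). Counts were rounded only to estimate these factors. TPM rescaled without pancreas and stomach lists and left uncentred, and ratios over coding transcripts, were added after the data were seen. Python 3.11.15, numpy 2.4.6 and pandas 2.3.3 were used. The depth was 45472946 and 45822403 fragments. The intervals cover the estimation within a library only, and the floors stand for 3 fragments. Neither covers differences between the libraries, and the replicates may differ technically.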

Additional observations from a re-analysis of the deposited data

How the results depend on the processing

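Ada was the only member past 2-fold higher in replicate 1 under every alternative. The count of members at least 2-fold higher in replicate 2 rose from 0 to 3 without centring, to 1 with the median spike-in ratio (0.30) subtracted and to 1 at 1.5-fold. Among the other nucleotide genes, those higher in replicate 1 went from 4 to 8 with a pseudocount of 0.1, 8 with the median taken over genes of at least 10 TPM and 13 at 1.5-fold. Those higher in replicate 2 went from 2 to 15 without centring, 6 with the spike-in median, 6 with TPM rescaled without the pancreas and stomach lists and not centred, and 7 at 1.5-fold. Over all genes, the 775 higher in replicate 1 became 394 with a pseudocount of 5, 383 without centring, 512 with the spike-in median and 1784 at 1.5-fold, and the 617 higher in replicate 2 became 3054 without centring, 1395 with the spike-in median, 1080 with the rescaled and uncentred TPM and 1577 at 1.5-fold. The moves at 1.5-fold follow from the threshold and those without centring or with another base from that base, by construction; for the pseudocounts the cause was not tested. The rescaling raised the mean summed member TPM from 867 to 1055. With a pseudocount of 1 the mean log2 ratio of Xdh over Hprt fell from 6.07 to 5.21 and that of Gda over Hprt from 5.75 to 4.90, and over coding transcripts alone the latter was 3.77. Leaving out either replicate left 9 or 8 members at 1 TPM, and 7 were at 5 TPM in both. No paired analysis was possible because there is 1 group. Hprt, at 44 and 82 fragments, is the member whose level depth limits most.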
